A study of Mus musculus with 9 samples.

Results

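The genes described here are the 34 WNT ligands, Frizzled receptors and co-receptors of the mouse, taken by their platform gene symbol from a one-colour array study of sorted fetal lung mesenchyme. They were 19 WNT ligands, 10 Frizzled receptors and 5 co-receptors or alternative receptors (Lrp5, Lrp6, Ror1, Ror2 and Ryk), out of 24306 genes on the arrays. All 34 were measured, by 49 array features, 21 of them by 1 feature and 13 by more than 1.

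RNA was taken from RFP-positive lung cells at stage E18.5, from embryos whose mothers had received tamoxifen (0.1 mg per g body weight) at E15.5, and cells were sorted without culture after staining for the smooth muscle actin Acta2 and for the receptor PDGFRA. SMC arrays held Acta2-high, PDGFRA-low cells, which the labels describe as smooth muscle of airways and vessels. MYF arrays held PDGFRA-high cells, described as progenitors of alveolar myofibroblasts. INM arrays held cells low for both proteins, described as undifferentiated progenitors of either type. All groups carried the RFP label and the tamoxifen, and the gene that drives the label is not given in the sources used here. Each group had 3 arrays, and the design gives 3 mice per group. Whole-transcriptome amplification preceded Cy3 labelling, and the values are log2 signals.

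WNT proteins are lipid-modified, secreted ligands that bind Frizzled receptors on nearby cells. With the co-receptors LRP5 or LRP6 they stabilise beta-catenin, which acts with LEF and TCF factors on target genes, while ligands such as WNT5A also act without beta-catenin through ROR or RYK receptors and the planar polarity proteins. In the developing lung, WNT signals pass between epithelium and mesenchyme during branching, smooth muscle formation and the formation of air sacs.

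One array stood apart from the rest. SMC replicate 1 correlated with the other arrays at r of 0.425 to 0.451 over all features, whereas the other 8 arrays correlated with each other at 0.864 to 0.970. Of the 34 members, its value lay above the range of the other 8 arrays for 11, below it for 8 and within it for 15. The same counts were not made over all genes. Because SMC replicate 1 stood apart, differences are given over the 8 arrays without it, of which 2 are SMC arrays. The 9-array results stand beside the contrasts in which a member passed. Some other differences are given over 8 arrays only. Pdgfra followed the sort, at 1.98, 6.93 and 6.89 on the SMC arrays, 13.63, 13.04 and 13.87 on the MYF arrays and 8.66, 8.46 and 8.30 on the INM arrays. Acta2 read 14.77, 15.88 and 14.79 on SMC, 14.06, 13.87 and 13.97 on MYF and 13.43, 13.44 and 13.84 on INM arrays. The Acta2 difference of 1.37 ± 0.38 (SE) for SMC minus MYF did not pass limma's test (adjusted p = 0.0647), and neither did that of 1.76 ± 0.38 for SMC minus INM (adjusted p = 0.119). Values of different genes come from different probes and are not ranked against each other.

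Among the WNT ligands and receptors, MYF cells differed from both other groups once SMC replicate 1 was left out, and no member passed the test between SMC and INM. Wnt5a, Wnt5b, Wnt9a, Fzd1 and Ror1 were higher in MYF than in INM and lower in SMC than in MYF, by 1.81 to 3.96 on the log2 scale. Fzd6 showed the opposite signs in both comparisons. Against INM, Wnt10b was also higher and Wnt3a and Wnt7a were lower in MYF, and Wnt11 was lower in SMC than in MYF. SMC minus MYF and MYF minus INM share the MYF arrays, so the values of both are set side by side below and are not independent of each other.

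In MYF minus INM, 9 of the 34 members (26.5%) passed limma's test over 8 arrays, 6 higher and 3 lower in MYF, while 10.7% of all genes tested passed. Of all genes, 4.35% were higher and 6.35% lower. Over 9 arrays 2 members passed, Wnt5a as higher and Fzd6 as lower, against 1.1% of all genes (0.173% higher and 0.927% lower), and 8 had an unadjusted p under 0.05. In SMC minus MYF, 7 members (20.6%) passed over 8 arrays, Fzd6 as higher and 6 as lower in SMC, against 8.19% of all genes. Of all genes, 4.66% were higher and 3.54% lower in SMC. Over 9 arrays 0 members passed in that contrast by limma, against 0.671% of all genes (0.292% lower). There 10 members had an unadjusted p under 0.05, and the smallest adjusted p was 0.0543. The share of all genes with an unadjusted p under 0.05 was not computed, so neither unadjusted count has a background. Counts depended on single arrays, and the share of all genes was not computed for the fits that follow. Of the 8-array counts, that of MYF minus INM was 3 without MYF 1, 4 without MYF 3, INM 2 or INM 3 and 5 without INM 1, and that of SMC minus MYF was 4 without MYF 1 or MYF 3. The 9-array count of SMC minus MYF was 6 without SMC 2, and that of MYF minus INM was 0 without any 1 of the MYF or INM arrays.

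The median difference over the 34 members was 0.46 in MYF minus INM, against 0.05 over all genes tested, with and without SMC replicate 1. In SMC minus MYF it was -0.59 without that array, against -0.05 over all genes, and -0.36 with it, against 0.10. Without SMC replicate 1 the arrays of the 2 groups did not overlap for 13 members (38.2%) in MYF minus INM, against 35.2% of all genes, and for 15 (44.1%) in SMC minus MYF, against 40.3%. Those shares lie near the background. Since cells were sorted and RNA was measured in bulk, fewer cells of a type and less RNA per cell cannot be told apart.

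**Figure D1:**
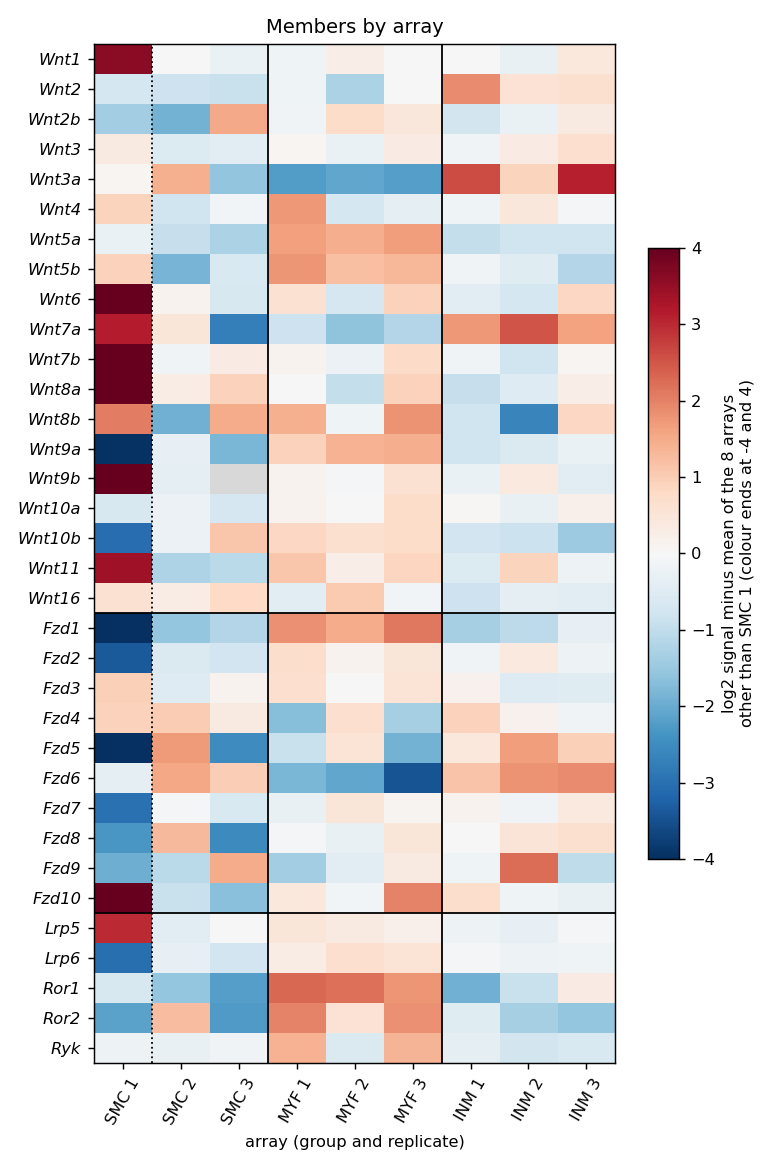
Log2 signal of the 34 members on each of the 9 arrays, as the difference from the gene's mean over the 8 arrays other than SMC replicate 1, with arrays in the order SMC, MYF and INM and genes by role, a grey cell for the empty value of Wnt9b and colours ending at 4 on either side. The column of SMC replicate 1 departs from SMC replicates 2 and 3, and Wnt5a, Wnt5b, Wnt9a, Fzd1 and Ror1 are high on the 3 MYF columns while Fzd6 is low there.

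Wnt5a, a ligand best known for signalling without beta-catenin and for shaping the distal lung, read 10.06, 9.38 and 9.06 on the SMC arrays, 11.96, 11.76 and 11.97 on the MYF arrays and 9.36, 9.51 and 9.52 on the INM arrays. The 3 MYF arrays were above all others, and SMC and INM arrays overlapped. The difference was 2.44 ± 0.25 (SE) in MYF minus INM (limma adjusted p = 0.00114) and -2.68 ± 0.28 in SMC minus MYF (adjusted p = 0.00248). Over 9 arrays these were 2.44 ± 0.44 (adjusted p = 0.0423) and -2.40 ± 0.44 (adjusted p = 0.0543). Without SMC replicate 1 both calls held when any further array was left out, whereas the 9-array call was lost without any 1 of the MYF or INM arrays (adjusted p 0.159 to 0.211). Wnt5a had 3 features, and fitted one by one all 3 passed in both contrasts, at 2.44 to 4.06 in MYF minus INM and -4.03 to -2.68 in SMC minus MYF.

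Wnt5b, the closest relative of Wnt5a, read 9.69, 6.93 and 8.16 on SMC, 10.54, 9.98 and 10.10 on MYF and 8.65, 8.29 and 7.59 on INM arrays. MYF arrays again lay above all others. The difference was 2.03 ± 0.42 in MYF minus INM (limma adjusted p = 0.0219) and -2.66 ± 0.47 in SMC minus MYF (adjusted p = 0.0154), against adjusted p of 0.311 and 0.273 with all 9 arrays, where the SMC minus MYF difference was -1.94 ± 0.71. The first call was lost without MYF 1, MYF 3, INM 2 or INM 3 (adjusted p 0.0669 to 0.0892), and the second without MYF 1 or MYF 3 (0.0525 to 0.0593). The second Wnt5b call was also lost with the replicate block, array weights or the compared groups fitted alone (limma adjusted p 0.0517 to 0.0605). A second Wnt5b feature read 1.82 ± 0.56 and -1.40 ± 0.62 in the same contrasts and passed in neither (limma adjusted p over features 0.101 and 0.222).

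Wnt9a, a ligand known from joint and skeletal development, read 2.03, 5.66 and 4.17 on SMC, 6.92, 7.38 and 7.45 on MYF and 5.19, 5.42 and 5.72 on INM arrays. The MYF arrays were the 3 highest, and SMC replicate 1 was far below the other SMC arrays. Its difference was 1.81 ± 0.41 in MYF minus INM (limma adjusted p = 0.0308) and -2.33 ± 0.46 in SMC minus MYF (adjusted p = 0.0229). The 9-array adjusted p values were 0.551 and 0.123, and the SMC minus MYF difference was -3.30 ± 0.82. Leaving out any 1 of the MYF or INM arrays ended the MYF minus INM call (adjusted p 0.0715 to 0.109), and leaving out SMC 3 or any MYF array ended the other (0.0546 to 0.0818). The replicate block also ended both Wnt9a calls (0.0641 and 0.0592), and array weights (0.0539) and the compared groups fitted alone (0.0844) ended that of SMC minus MYF.

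Wnt10b, a ligand that restrains fat cell formation, read 2.77, 5.59 and 6.92 on SMC, 6.63, 6.47 and 6.54 on MYF and 5.05, 4.95 and 4.36 on INM arrays. MYF lay above INM, and the SMC arrays reached from below INM to above MYF. The MYF minus INM difference of 1.76 ± 0.39 passed (limma adjusted p = 0.0271), but not with all 9 arrays (adjusted p = 0.688), nor without any 1 of the MYF or INM arrays (0.0615 to 0.0985), nor with the replicate block (0.0699). Its other feature went the other way, at -0.37 ± 0.46 in MYF minus INM, and with the mean of both features the Wnt10b difference was 0.70 (limma adjusted p = 0.315). In SMC minus MYF the Wnt10b difference was -0.29 ± 0.43 (limma adjusted p = 0.718), and -1.45 ± 0.93 with all 9 arrays.

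Wnt11, a ligand of beta-catenin-independent signalling known from kidney branching, read 9.94, 5.32 and 5.48 on SMC, 7.66, 6.83 and 7.40 on MYF and 6.00, 7.44 and 6.34 on INM arrays. SMC replicates 2 and 3 were the lowest arrays and SMC replicate 1 the highest, so this result rests on how that array is treated. SMC minus MYF was -1.90 ± 0.47 without it (limma adjusted p = 0.0475) and -0.39 ± 1.14 with it (adjusted p = 0.863). The Wnt11 call was lost when any further array other than INM 2 was left out (adjusted p 0.0563 to 0.141), and with the replicate block, array weights, the compared groups fitted alone, the probe of largest interquartile range or every feature fitted on its own (0.051 to 0.155). A second Wnt11 feature gave -1.01 ± 0.35 in SMC minus MYF (limma adjusted p over features 0.134), and on it SMC replicate 1 was the lowest array, at 4.83. MYF and INM arrays overlapped, at a difference of 0.70 ± 0.42 (limma adjusted p = 0.361).

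Wnt3a, the ligand most used to activate beta-catenin, ran the other way. It read 4.90, 6.25 and 3.26 on SMC, 2.62, 2.77 and 2.65 on MYF and 7.46, 5.74 and 7.95 on INM arrays. The MYF arrays were the 3 lowest, and the SMC and INM arrays overlapped. The MYF signals lay near the low end of the arrays, whose lowest value was 1.65, and no detection call shows them above background, so the size of this difference is uncertain. MYF minus INM was -4.37 ± 0.81 (limma adjusted p = 0.0136, and 0.0515 with all 9 arrays), and the call was lost without MYF 1, MYF 3, INM 1 or INM 3 (0.0549 to 0.0576). SMC minus MYF was 2.08 ± 0.90 and did not pass (limma adjusted p = 0.189).

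Wnt7a, a ligand known from limb patterning, read 9.27, 6.61 and 3.41 on SMC, 5.30, 4.52 and 4.97 on MYF and 7.87, 8.64 and 7.75 on INM arrays. MYF and INM arrays did not overlap, while the SMC arrays held both the lowest and the highest value. The MYF minus INM difference was -3.16 ± 0.74 (limma adjusted p = 0.0337). That call was lost with all 9 arrays (adjusted p = 0.402), without any 1 of the MYF or INM arrays (0.0821 to 0.115), or with the replicate block (0.0534). The 2 Wnt7a features gave -3.16 and -3.74, and both passed when fitted one by one. Without SMC replicate 1 the other feature would have the highest mean and stand for the gene. On it SMC replicate 1 was the lowest array, at 2.05. In SMC minus MYF the Wnt7a difference was 0.08 ± 0.82 (limma adjusted p = 0.965).

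The other 12 ligands (Wnt1, Wnt2, Wnt2b, Wnt3, Wnt4, Wnt6, Wnt7b, Wnt8a, Wnt8b, Wnt9b, Wnt10a and Wnt16) passed in no contrast in either fit. Their group means without SMC replicate 1 were 2.17 to 7.05. For 8 of them (Wnt3, Wnt6, Wnt7b, Wnt8a, Wnt8b, Wnt9b, Wnt10a and Wnt16) the brightest group mean was below 6.00, the median of the mean signals of all genes, and no detection calls were used. Differences were -1.51 to 1.88 in MYF minus INM and -1.24 to 0.62 in SMC minus MYF, with smallest limma adjusted p of 0.0878 and 0.218. The 0.0878 was that of Wnt2, a ligand of the lung mesenchyme, at -1.51 ± 0.48, with 5.80, 4.70 and 6.00 on MYF and 7.87, 6.55 and 6.62 on INM arrays. Wnt9b had an empty cell on SMC replicate 3, so its SMC value without SMC replicate 1 rests on 1 array. On SMC replicate 1, Wnt6 read 11.35 and Wnt1 read 10.60, against no more than 5.25 and 7.44 on the other 8 arrays. Wnt1, Wnt2 and Wnt6 were singled out after their values were seen.

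Fzd1, a Frizzled receptor, read 2.63, 7.40 and 7.79 on SMC, 10.78, 10.45 and 11.08 on MYF and 7.64, 7.92 and 8.63 on INM arrays. The MYF arrays were above all others, SMC replicates 2 and 3 overlapped INM, and SMC replicate 1 was the lowest. Fzd1 was higher by 2.71 ± 0.34 in MYF minus INM (limma adjusted p = 0.00277), and SMC minus MYF was -3.18 ± 0.39 (adjusted p = 0.00416). Both calls held when any further array was left out. In the fit of 9 arrays the SEs were 1.21, the SMC minus MYF difference was -4.84, and the adjusted p values were 0.529 and 0.123.

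Fzd6, a Frizzled known for planar polarity of skin and hair, read 6.78, 8.71 and 8.17 on SMC, 5.36, 5.09 and 3.73 on MYF and 8.32, 8.97 and 9.07 on INM arrays. All 3 MYF arrays were below every other array, SMC replicate 1 included. MYF minus INM was -4.06 ± 0.47 (limma adjusted p = 0.00187, and 0.0314 with all 9 arrays), and SMC minus MYF was 3.72 ± 0.52 (adjusted p = 0.00669). Over 9 arrays SMC minus MYF was 3.16 ± 0.67 (limma adjusted p = 0.0805). The calls without SMC replicate 1 held with any further array left out, whereas the 9-array call of Fzd6 was lost without any 1 of the MYF or INM arrays (0.107 to 0.168).

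Fzd5, a Frizzled known from the eye, yolk sac and gut, had the largest difference among the remaining Frizzleds whose brighter group reached the median of all genes, and it did not pass. It read 2.62, 8.91 and 4.70 on SMC, 6.31, 7.74 and 5.31 on MYF and 7.64, 8.89 and 8.17 on INM arrays, and the 3 groups overlapped. MYF minus INM was -1.78 ± 1.05 (limma adjusted p = 0.354) and its second feature gave 0.08, so the features differed in sign. The other 7 Frizzleds (Fzd2, Fzd3, Fzd4, Fzd7, Fzd8, Fzd9 and Fzd10) passed in no contrast in either fit, with group means of 2.10 to 10.49 and the brightest group below the median of all genes for Fzd8, Fzd9 and Fzd10. Their differences were -1.10 to 0.70 in MYF minus INM and -2.05 to 1.46 in SMC minus MYF, with smallest limma adjusted p of 0.264 and 0.075. A second feature of Fzd4, the receptor of norrin in blood vessels, did pass in MYF minus INM, at -1.55 ± 0.30 (limma adjusted p over features 0.0231), where the feature that stands for the gene gave -1.10 ± 0.63.

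**Figure D2:**
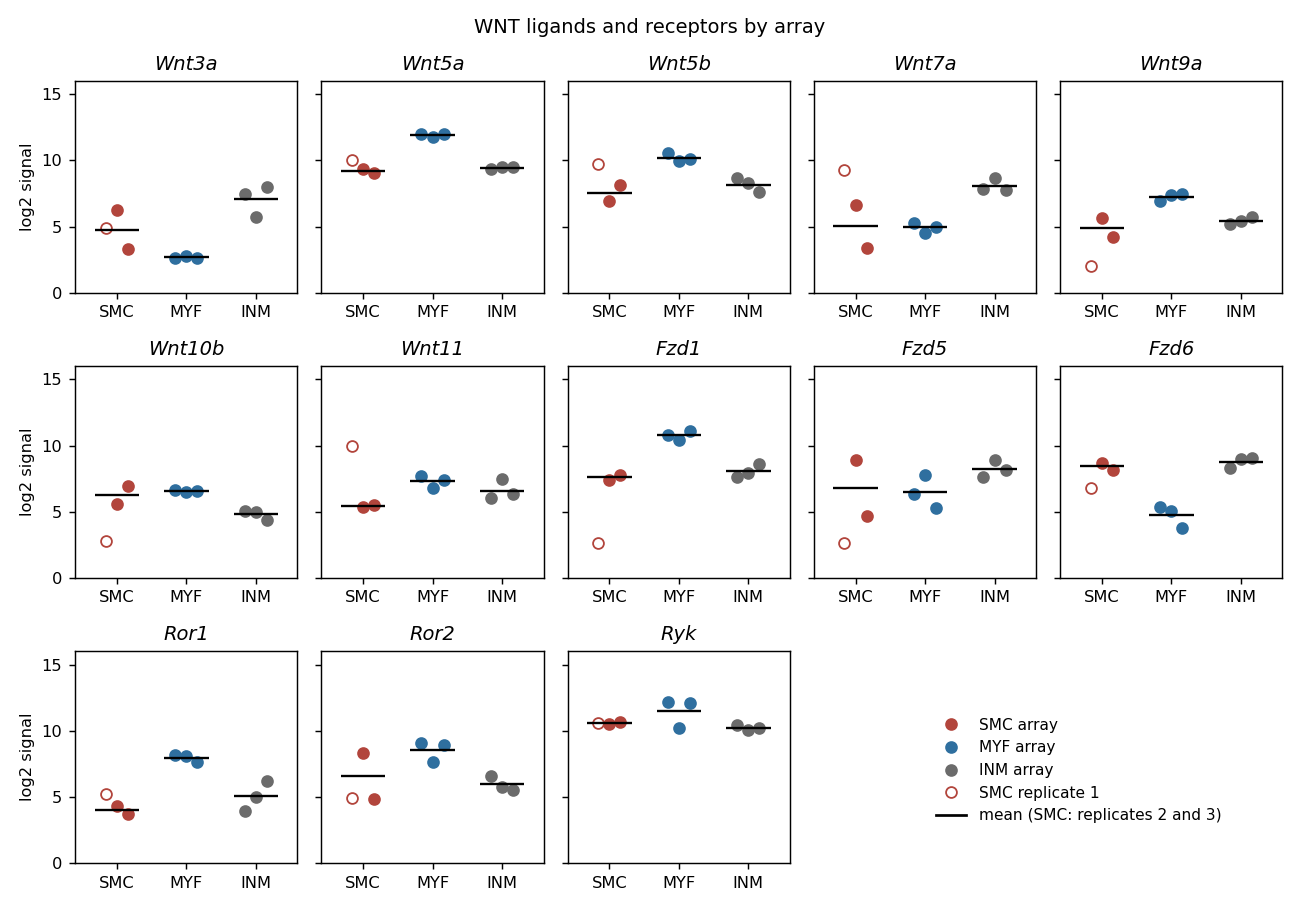
Log2 signal of the 13 members described array by array, 1 panel per gene, with SMC, MYF and INM from left to right, points for arrays and lines for group means without SMC replicate 1, which is drawn as an open point. MYF points lie above all others for Wnt5a, Wnt5b, Wnt9a, Fzd1 and Ror1 and below all others for Wnt3a and Fzd6.

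Ror1, a receptor tyrosine kinase that binds Wnt5a, read 5.23, 4.33 and 3.68 on SMC, 8.16, 8.09 and 7.65 on MYF and 3.95, 4.98 and 6.20 on INM arrays. The MYF arrays were the 3 highest, and SMC and INM arrays overlapped. The differences were 2.92 ± 0.54 in MYF minus INM (limma adjusted p = 0.014) and -3.96 ± 0.61 in SMC minus MYF (adjusted p = 0.00912). In the 9-array fit they were 2.92 ± 0.67 (limma adjusted p = 0.0915) and -3.55 ± 0.67 (adjusted p = 0.0586). The SMC minus MYF call of Ror1 held with any further array left out and was lost with array weights (adjusted p 0.0628), and the MYF minus INM call was lost without MYF 1 or INM 2 (0.0543 to 0.0614). A second Ror1 feature gave 3.08 ± 0.78 and -3.13 ± 0.87, which did not pass over all features (limma adjusted p 0.0578 and 0.0809).

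Ror2, the related receptor of Wnt5a, did not pass in either contrast. It read 4.95, 8.31 and 4.80 on SMC, 9.07, 7.66 and 8.90 on MYF and 6.58, 5.75 and 5.51 on INM arrays. MYF and INM arrays did not overlap, and SMC replicate 2 lay within the MYF range. The differences were 2.59 ± 0.84 in MYF minus INM (limma adjusted p = 0.0965) and -1.99 ± 0.94 in SMC minus MYF (adjusted p = 0.227).

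Ryk, a WNT-binding receptor with an inactive kinase domain, read 10.59, 10.48 and 10.63 on SMC, 12.16, 10.21 and 12.13 on MYF and 10.40, 10.06 and 10.16 on INM arrays. MYF replicate 2 lay with the SMC and INM arrays. MYF minus INM was 1.29 ± 0.52 (limma adjusted p = 0.167) and SMC minus MYF was -0.95 ± 0.58 (adjusted p = 0.342). Of its other 2 features, 1 passed in MYF minus INM at 2.41 ± 0.46 (limma adjusted p over features 0.0226), and the other gave 1.25 ± 0.51. In SMC minus MYF these 2 Ryk features gave -2.04 ± 0.51 and -1.97 ± 0.57 and did not pass (limma adjusted p over features 0.0612 and 0.087). The co-receptors of beta-catenin signalling, Lrp5 and Lrp6, passed in no contrast. Their group means were 9.20 to 10.44, with differences of 0.55 and 0.66 in MYF minus INM and -0.58 and -1.06 in SMC minus MYF.

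**Figure D3:**
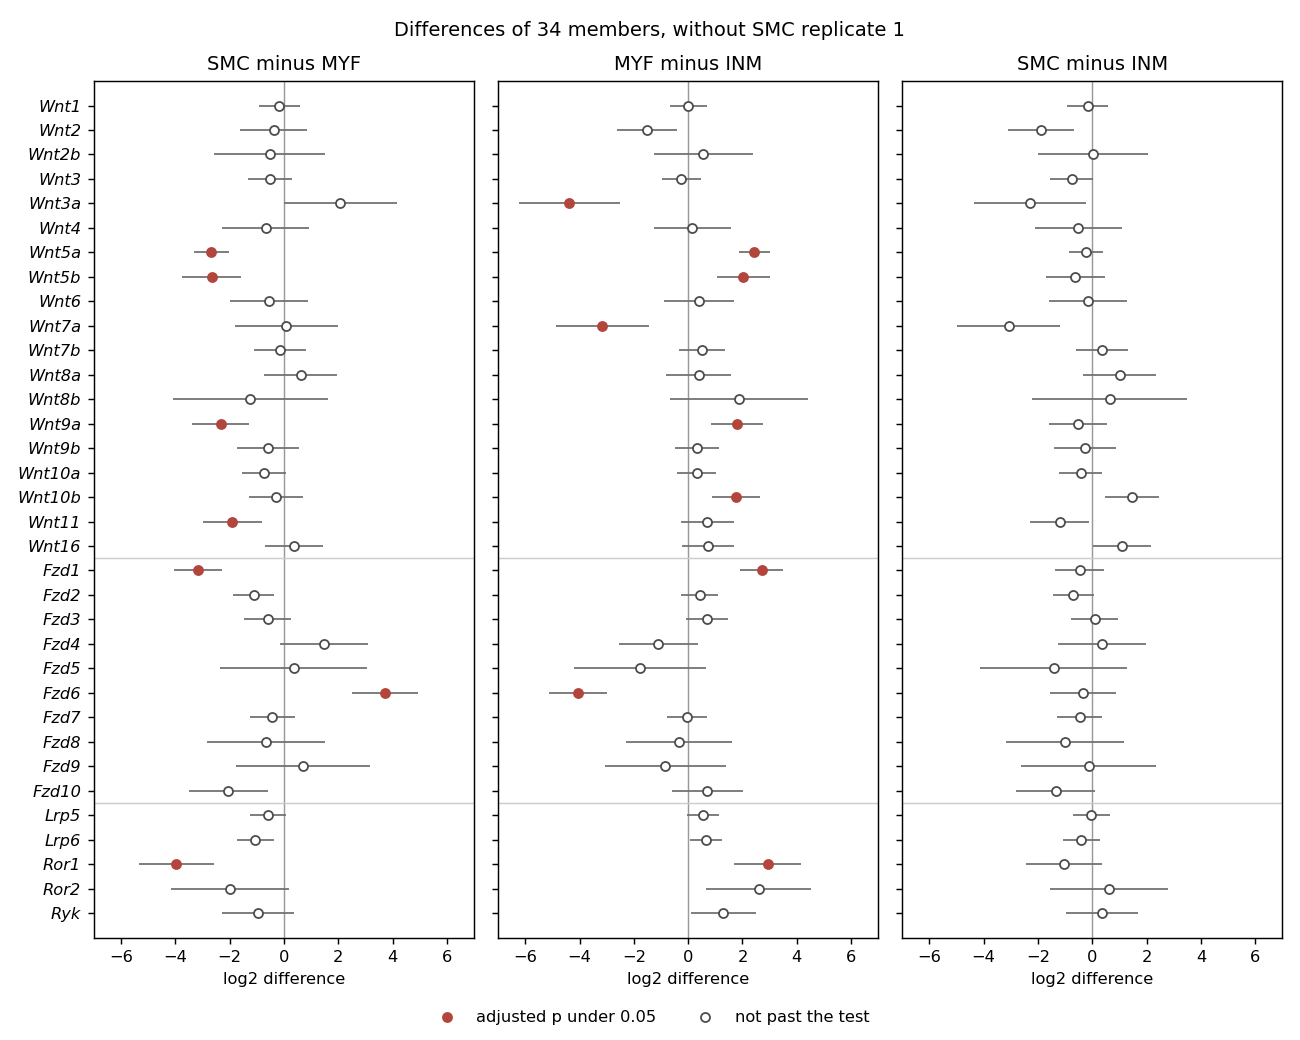
Log2 difference of each of the 34 members with its 95% interval from limma, without SMC replicate 1, in SMC minus MYF, MYF minus INM and SMC minus INM, with filled points for members past the adjusted threshold of 0.05. In MYF minus INM 9 members are filled, in SMC minus MYF 7, and in SMC minus INM 0.

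In SMC minus INM, 0 of the 34 members passed limma's test in either fit, against 0.247% of all genes without SMC replicate 1 (0.0906% higher and 0.156% lower) and 0% with all 9 arrays. An unadjusted p under 0.05 was reached by 6 members without that array and by 2 with it. For these counts too, the share of all genes was not computed. The smallest adjusted p was 0.204 without it, for Wnt7a at -3.08 ± 0.82, and 0.554 with it. The 95% interval for Wnt7a was -4.98 to -1.18 before adjustment. For Wnt5a the SMC minus INM difference was -0.24 ± 0.28, with a 95% interval of -0.88 to 0.40. Fzd1 gave -0.47 (interval -1.36 to 0.42) and Fzd6 gave -0.34 (interval -1.55 to 0.86). Ror1 gave -1.04, with an interval of -2.43 to 0.36. Without SMC replicate 2 as well, the SMC minus INM difference was -3.79 ± 0.77 for Wnt3a, -4.68 ± 0.49 for Wnt7a and 2.14 ± 0.39 for Wnt10b. That fit rests on SMC replicate 3 alone and assumes that it varies like the other groups. The median over the members was -0.37, against -0.03 over all genes, and -0.02 with all 9 arrays, against 0.03. Groups did not overlap for 11 members (32.4%), against 28.4% of all genes.

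Where a member had several features, each was fitted on its own. In MYF minus INM the features of a member differed in sign for Wnt7b, Wnt10b and Fzd5, and in SMC minus MYF for Wnt10b and Fzd8. For the other members with several features they had the same sign in both contrasts. In SMC minus INM they differed in sign for Wnt5a, Wnt5b, Wnt7b, Wnt10b, Wnt11, Fzd4, Fzd5 and Ryk, and for Wnt5a they gave -0.24 to 0.48.

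**Figure D4:**
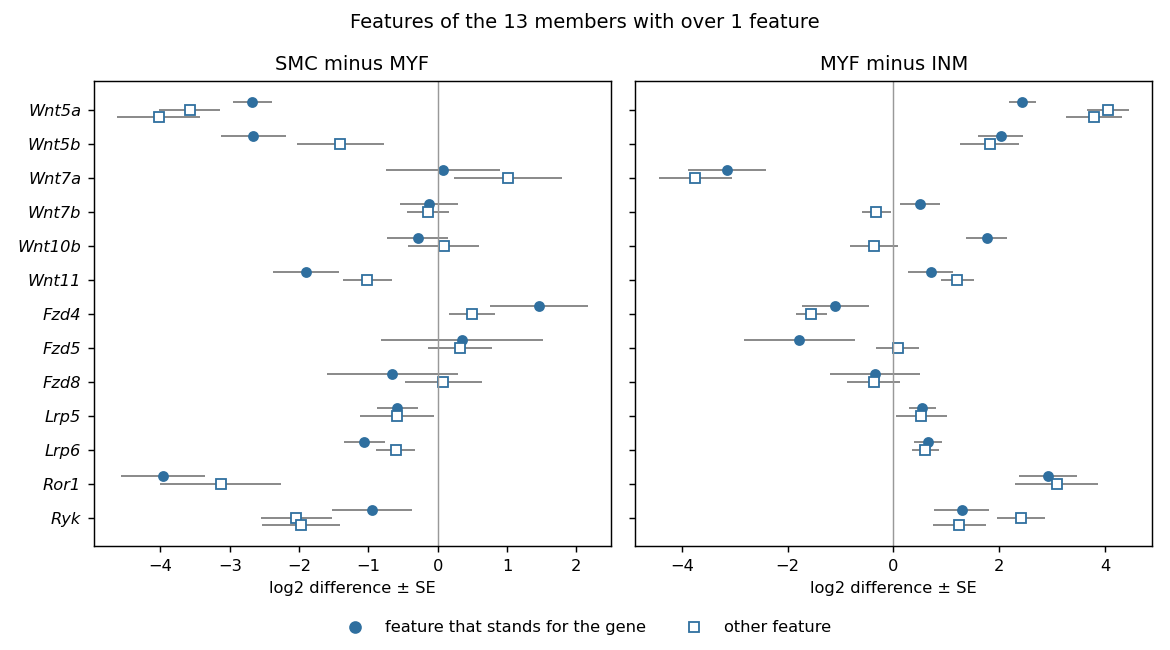
Log2 difference of each feature of the members measured by more than 1 feature, without SMC replicate 1, with bars of 1 SE, a filled point for the feature that stands for the gene and open squares for others, and SMC minus MYF left of MYF minus INM. The 3 Wnt5a features lie at 2.44 to 4.06 in MYF minus INM, whereas the 2 Wnt10b features lie at 1.76 and -0.37.

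Promoter windows from RefSeq (mouse build GRCm38.p6, 250 bases before to 50 bases after a gene's start) were found for 24 of the 34 members, in 27 windows. Members past the test with a window were Wnt3a, Wnt5b, Wnt7a, Wnt9a, Wnt10b, Wnt11, Fzd1 and Ror1. Windows of 5 of them are shown as examples, 4 of genes that were lower in SMC than in MYF and that of Wnt7a, which was lower in MYF than in INM, and these were picked after their matches were known. Wnt5b has 3 windows and Wnt11 has 2, of which the 1 with a LEF/TCF match is shown for each. Each runs 5′ to 3′ on the gene's strand. Capitals mark matches, on either strand, to the LEF/TCF motif (CTTTGAA or CTTTGAT), the GC box (GGGCGG) and the TATA box (TATAAA). The windows are chr6:119449337-119449636 on the minus strand for Wnt5b, chr7:98834862-98835161 on the plus strand for Wnt11, chr5:4758167-4758466 on the minus strand for Fzd1, chr4:100095541-100095840 on the plus strand for Ror1 and chr6:91411304-91411603 on the minus strand for Wnt7a.
Wnt5b: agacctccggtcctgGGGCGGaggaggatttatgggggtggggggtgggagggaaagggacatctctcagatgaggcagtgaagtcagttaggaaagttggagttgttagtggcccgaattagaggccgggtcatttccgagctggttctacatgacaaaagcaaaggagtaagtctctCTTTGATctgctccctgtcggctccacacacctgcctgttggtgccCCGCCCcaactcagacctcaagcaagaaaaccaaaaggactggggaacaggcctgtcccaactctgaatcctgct
Wnt11: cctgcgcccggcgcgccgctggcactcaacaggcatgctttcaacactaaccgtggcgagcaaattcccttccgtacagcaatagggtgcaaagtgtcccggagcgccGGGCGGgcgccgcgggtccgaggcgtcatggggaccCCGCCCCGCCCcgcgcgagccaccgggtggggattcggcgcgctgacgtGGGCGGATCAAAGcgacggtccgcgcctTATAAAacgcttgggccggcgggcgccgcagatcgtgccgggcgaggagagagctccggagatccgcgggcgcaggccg
Fzd1: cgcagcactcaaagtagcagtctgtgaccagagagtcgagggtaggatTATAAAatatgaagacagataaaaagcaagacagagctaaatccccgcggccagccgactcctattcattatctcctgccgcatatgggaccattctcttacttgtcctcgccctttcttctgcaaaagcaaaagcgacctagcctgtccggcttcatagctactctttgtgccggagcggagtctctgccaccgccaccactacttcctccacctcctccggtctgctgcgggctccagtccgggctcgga
Ror1: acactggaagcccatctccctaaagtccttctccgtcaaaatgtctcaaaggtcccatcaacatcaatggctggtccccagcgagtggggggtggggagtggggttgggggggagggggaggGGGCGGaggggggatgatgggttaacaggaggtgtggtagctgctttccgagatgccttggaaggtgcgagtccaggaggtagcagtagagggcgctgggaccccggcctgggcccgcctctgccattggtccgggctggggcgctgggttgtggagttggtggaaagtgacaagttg
Wnt7a: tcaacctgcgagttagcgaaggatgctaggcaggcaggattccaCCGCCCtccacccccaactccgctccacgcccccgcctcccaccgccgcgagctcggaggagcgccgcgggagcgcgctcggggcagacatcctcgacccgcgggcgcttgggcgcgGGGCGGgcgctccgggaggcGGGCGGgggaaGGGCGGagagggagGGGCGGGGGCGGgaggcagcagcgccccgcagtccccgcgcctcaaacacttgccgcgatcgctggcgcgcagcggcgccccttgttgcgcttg

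The windows shown for Wnt5b and Wnt11 each held 1 LEF/TCF match, and the other windows of these genes held 0. The window of Fzd1 held a TATA box and no GC box, that of Ror1 held 1 GC box, and that of Wnt7a held 6. Those of Wnt3a, Wnt9a and Wnt10b, not printed, held 9, 5 and 0 GC boxes and 0 LEF/TCF matches. Over all member windows, the LEF/TCF motif was in 2 of 27 (7.41%), against 2842 of 32851 windows in the table (8.65%). The TATA box was in 3 (11.1%), against 13.6%. GC boxes were in 22 (81.5%), against 35.7%, in windows whose median GC content was 71.3%, against 52.7%. A match describes the letters of a window and is not a measured site.

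Other genes of the pathway, from lists chosen with earlier results of these data known, are given without SMC replicate 1. For all these lists the background is the share of all genes past the test. It was 4.35% higher and 6.35% lower in MYF minus INM, and 4.66% higher and 3.54% lower in SMC minus MYF. With all 9 arrays it was 0.173% and 0.927%, and then 0.379% and 0.292%. Median differences over all genes were 0.05 and -0.05 without SMC replicate 1. Among 16 inhibitors and modulators of WNT signalling, secreted or in the membrane, 4 rose and 1 fell in MYF minus INM (median 0.36). In SMC minus MYF 1 rose and 4 fell (median -0.50). Wif1, which binds WNT proteins outside the cell, read 1.98 to 4.44 on SMC arrays, at least 10.05 on every MYF array and 4.42 to 5.67 on INM arrays. The MYF arrays lay far above all others, at 5.53 ± 0.65 in MYF minus INM (limma adjusted p = 0.00199) and -7.45 ± 0.72 in SMC minus MYF (adjusted p = 0.0021). Dkk3 was higher by 2.73 in MYF minus INM, and Frzb, a secreted Frizzled-related protein, gave -2.85 in SMC minus MYF. Dkk2, which binds LRP co-receptors, had the opposite signs, at -2.62 and 3.77. The 9-array inhibitor counts were 1 and 0 in MYF minus INM and 0 and 2 in SMC minus MYF.

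Of 17 WNT target genes, 6 rose and 2 fell in MYF minus INM (median 0.87), and 0 rose and 5 fell in SMC minus MYF (median -1.36). Of 18 cytoplasmic and nuclear effectors, 4 rose and 0 fell, and 0 rose and 2 fell (medians 0.55 and -0.71). Lef1 and Tcf7, DNA-binding partners of beta-catenin that stand in both lists, gave 5.20 ± 0.50 and 3.45 ± 0.41 in MYF minus INM and -4.60 ± 0.50 and -3.93 ± 0.45 in SMC minus MYF. Lef1 had an empty cell on INM replicate 1. Axin2, a feedback inhibitor, gave 2.42 ± 0.35 and -2.08 ± 0.39. Lgr5, a receptor of R-spondins, gave 2.33 ± 0.56 and -5.25 ± 0.62. On SMC replicate 1 Lgr5 read 8.04, within the MYF range of 7.35 to 9.30. With all 9 arrays its SMC minus MYF difference was -3.53 ± 1.32 (limma adjusted p = 0.282). Tnfrsf19 rose by 3.00, while Rnf43, a ligase that removes Frizzleds from the surface, gave -3.98 and Ccnd1, a cyclin, gave -3.53 in MYF minus INM. All gene differences given in this paragraph without SMC replicate 1 passed limma's test. With all 9 arrays, targets counted 2 and 1 in MYF minus INM and 0 and 2 in SMC minus MYF, and effectors 2 and 0 and then 0 and 2.

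Of 9 genes of the R-spondin module, 2 rose (Lgr4 and Lgr5) and 2 fell (Rspo2 and Rnf43) in MYF minus INM, and 1 fell in SMC minus MYF (Lgr5), with medians of -0.00 and -0.71. Over 9 arrays 1 fell in MYF minus INM. Of 16 planar polarity proteins and WNT-binding partners, 3 rose and 3 fell in MYF minus INM and 3 rose and 1 fell in SMC minus MYF (medians 0.13 and -0.86), against 1 and 1 in each contrast with all 9 arrays. Reck, a membrane partner of Wnt7a signalling, gave 3.37 ± 0.44 and -4.48 ± 0.50, and Celsr2, a planar polarity cadherin, gave -4.08 ± 0.42 and 3.58 ± 0.47. Of 3 genes of WNT secretion and acylation, Notum, which removes the lipid from WNT proteins, rose by 2.32 ± 0.36 in MYF minus INM, and SMC minus MYF was -2.03 ± 0.40, with 0 passing in either contrast with all 9 arrays. In SMC minus INM, 0 genes of these lists passed limma's test, against 0.247% of all genes. Some genes stand in 2 lists.

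**Figure D5:**
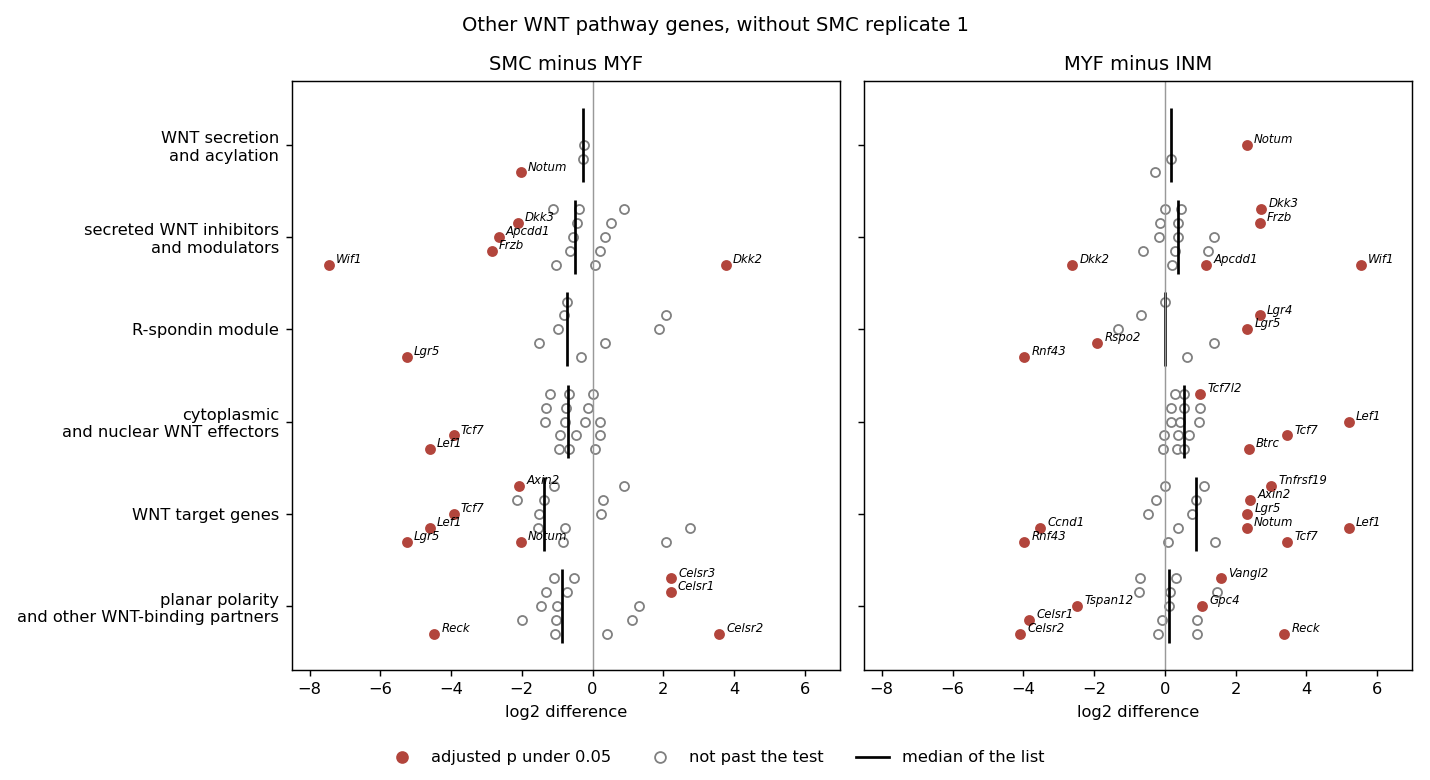
Log2 differences of the genes in 6 other WNT pathway lists without SMC replicate 1, 1 point per gene, with SMC minus MYF left of MYF minus INM and named, filled points for genes past the adjusted threshold of 0.05 and a bar at the median of each list. In MYF minus INM the target genes have 6 points past the test above 0 and 2 below, and in SMC minus MYF 0 above and 5 below.

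Markers of other cell types also differed between these groups. Of all genes, 4.35% were higher and 6.35% lower in MYF minus INM without SMC replicate 1. In SMC minus MYF 4.66% were higher and 3.54% lower. The mean log2 signal of 17 epithelial markers was 10.07 and 11.37 on SMC replicates 2 and 3, 6.57 to 6.84 on MYF and 11.76 to 12.15 on INM arrays, and all 17 passed limma's test as lower in MYF than in INM and as higher in SMC than in MYF (8 and 6 of 17 with all 9 arrays). Of 12 endothelial markers, with means of 9.17 and 9.62 on SMC, 5.60 to 6.13 on MYF and 9.67 to 9.77 on INM arrays, 10 were lower in MYF than in INM and 10 higher in SMC than in MYF (3 and 2 with all 9 arrays). Leukocyte markers were at 8.85 and 10.49 on SMC, 6.93 to 7.06 on MYF and 8.49 to 8.88 on INM arrays, with 1 of 10 higher and 3 lower in MYF minus INM and 6 higher in SMC minus MYF, against 0, 0 and 1 with all 9 arrays. Cardiac muscle markers were at 11.15 or more on both SMC arrays, 5.28 to 6.26 on MYF and 8.64 to 9.02 on INM arrays, with 6 of 12 lower in MYF minus INM and 11 higher in SMC minus MYF, against 0 and 3 with all 9 arrays. Mesothelial markers were at 6.94 and 7.72 on SMC, 4.99 to 5.12 on MYF and 7.85 to 8.32 on INM arrays, with 4 of 7 lower in MYF minus INM (1 with all 9 arrays) and 3 higher in SMC minus MYF (0). Lipofibroblast and matrix fibroblast markers were at 6.52 and 6.53 on SMC, 7.48 to 7.84 on MYF and 8.96 to 9.54 on INM arrays, with 5 of 10 lower in MYF minus INM (0 with all 9 arrays). In SMC minus MYF 1 lipofibroblast or matrix fibroblast marker was higher and 3 were lower, against 0 and 1 with all 9 arrays. Alveolar myofibroblast markers were highest on MYF arrays, at 12.81 to 13.08, with 6 of 8 past the test against INM and 2 of 8 with all 9 arrays. That list includes Pdgfra, whose protein was used to sort the cells, so its high MYF value follows from the sort. Pericyte and mural markers were at 9.10 and 9.39 on SMC, 10.10 to 10.28 on MYF and 9.45 to 9.76 on INM arrays, with 3 of 8 higher and 1 lower in MYF minus INM and 2 lower in SMC minus MYF. Of 11 smooth muscle contractile genes, which include Acta2 of the sort, 3 were higher in MYF minus INM and 3 in SMC minus MYF. Neither the mural nor the smooth muscle list had a gene past the test in those contrasts with all 9 arrays. Of 6 nerve and glia markers, 2 were higher and 1 lower in MYF minus INM and 1 was higher in SMC minus MYF, against 0 with all 9 arrays. Wnt3a, Wnt7a and Fzd6 were lower in MYF than in INM, as were many epithelial, endothelial, mesothelial, cardiac and lipofibroblast markers. Against SMC only Fzd6 of these members passed as lower in MYF, and lipofibroblast markers were lowest on the SMC arrays. The part of these markers in the differences was not tested. Wnt5a, Wnt5b, Wnt9a, Wnt10b, Fzd1 and Ror1 were higher in MYF than in INM, as were 6 of 8 alveolar myofibroblast markers. So were 3 of 8 mural markers, with 1 lower, and 3 of 11 smooth muscle contractile genes. Of these members Wnt10b did not pass against SMC. The part of these markers was not tested either.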

How the data were processed

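The authors deposited log2 signals of 9 one-colour arrays, 1 column per array. Limma was used to make them, per the submitters' processing notes, with no version; the columns share 1 distribution, which was taken to mean quantile normalization. The background correction and the rule behind empty cells (1197 cells of 733 features, left empty) are not given in the sources used here.

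Of 62976 features, 43941 had a symbol in the platform annotation, and each of 24306 genes was represented by the feature with the highest mean over the 9 arrays. Linear models (limma 3.58.1, lmFit followed by eBayes, in R 4.3.3) had 1 mean per group, no covariate, 2-sided tests and Benjamini-Hochberg adjustment over all genes (over all features where features were fitted one by one), at 0.05. Errors of differences are SEs and intervals 95%. The fit was tested on simulated data. Members and lists were chosen with earlier results of these data known, as was the fit without SMC replicate 1.

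Values on every array are given for members past the test in at least 1 contrast. Where a role had fewer than 3 of these, its members with the largest difference were added, up to 3, provided their brighter group reached the median level of all genes. Of each other list and contrast, the rule took the 2 most positive and 2 most negative genes past the test, of which the text gives a part. Alternatives were a replicate block, other scalings, a filter on dim genes, other probe choices, a variance trend, array weights, each contrast fitted on its 2 groups only, and each array left out in turn. Replicate numbers were not used as pairs: the labels name no shared animal or litter. P-values measure the spread between arrays, whose number limits precision.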

Additional observations from a re-analysis of the deposited data

How the results depend on the processing

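No member that passed took the other sign while passing under any alternative. Apart from the fit without SMC replicate 1, the share of all genes past the test was not computed for the alternatives. A change in a member count is therefore not told apart from a change over all genes. Without SMC replicate 1, the replicate block gave 4 members in SMC minus MYF, against 7, 6 in MYF minus INM, against 9, and 0 in SMC minus INM. Array weights gave 3 and the compared groups fitted alone 4 in SMC minus MYF. Other settings gave 6 to 9 there, 6 to 11 in MYF minus INM and 0 in SMC minus INM. Leaving out 1 further array gave 3 to 10 in MYF minus INM, where the 3 came without MYF replicate 1. In SMC minus MYF it gave 4 to 9, a range that includes fits with 1 SMC array. In SMC minus INM the count rose above 0 without SMC replicate 2, a fit that leaves 1 SMC array.

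With all 9 arrays, SMC minus MYF had 0 members, against 1 with dim genes left out, 2 with the mean of all probes, 2 with the probe of largest interquartile range, 11 with array weights and 0 with the replicate block. MYF minus INM had 2, against 0 with the replicate block, 1 with each array centred, 5 with the mean of all probes, 1 with a variance trend, 12 with array weights, 10 with the compared groups alone and 1 with every feature fitted on its own. That last setting and the choice of probe over 8 arrays, which gave 2, were chosen after seeing the data. SMC minus INM had 0, against 2 with array weights. Leaving out 1 array gave 0 to 7, 0 to 9 and 0 to 0. The 7 and the 9 came without SMC replicate 1, where 8.19% and 10.7% of all genes passed. The count of 6 in SMC minus MYF came without SMC replicate 2. No SMC array enters a MYF minus INM difference, which is the same in both fits. There SMC replicate 1 acts only through the shared estimate of spread, as for Fzd1 at 2.71 ± 1.21 with it and 2.71 ± 0.34 without it. Why that array departs from the others was not tested.

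Deviations of same-numbered arrays from their group means correlated at -0.0767 to 0.0994 over 9 pairs, and differently numbered ones at -0.102 to 0.111. These deviations include SMC replicate 1, which also shifts those of the other SMC arrays. The check therefore cannot show whether same-numbered samples shared a litter or a day. Signals near the low end carry no detection call, which limits the 11 members whose brightest group was below the median of all genes and differences from a dim group, such as that of Wnt3a.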
